A study of Mus musculus with 8 samples.

Results

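Pi16+ fibroblasts were the cells that the deposited annotation of synovial cells names Pi16+, joined to the count matrices by library and barcode. They numbered 1414 of 24227 annotated cells, of which 21731 fell into 5 fibroblast classes, out of 47658 barcodes. The cells came from ankle and wrist joints of 17 mice in 4 droplet libraries, each animal marked by a hashtag antibody. Untreated arthritic mice (n = 3) carried the hTNFtg197 transgene, a human TNF gene on the B6-Tg(TNF)197Gkl strain that gives chronic arthritis, and received the IL-23 minicircle DNA (Il23mc) 9 days before sampling. TNF-inhibited mice (n = 3) and IL-17A-inhibited mice (n = 3) had the same transgene and minicircle and were given an antibody to human TNF or to mouse IL-17A. FAP-sorted arthritic mice (n = 5) also had the transgene and the minicircle, with no inhibitor. Healthy mice (n = 3) were untreated wild-type animals, 1 in each library other than the FAP-sorted one. All were 8 to 10 weeks old. Viable CD45-negative cells were sorted from the first 3 kinds of animal and from the healthy ones, and viable CD45-negative cells positive for FAP and podoplanin from the FAP-sorted animals, so sort and library cannot be told apart in any comparison with FAP-sorted cells. The Pi16+ cells were 54 from untreated arthritic, 9 from TNF-inhibited, 123 from IL-17A-inhibited, 492 from FAP-sorted and 736 from healthy animals.

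Fibroblasts with high Pi16, Cd34 and Dpp4 are found in the connective tissue of many mouse organs, mostly in the adventitia of vessels and in fascia, and are widely regarded as a reservoir that can give rise to more specialised fibroblasts. Peptidase inhibitor 16 is a membrane-anchored protein of that state, CD34 is a sialomucin shared with blood vessel and stem cells, and Pcolce2 encodes an enhancer of procollagen processing. In the synovium such cells belong to the sublining, beneath the lubricin-producing lining layer. Fibroblasts answer TNF, IL-17A and interferons by secreting complement proteins, acute-phase proteins and chemokines and by showing more antigen on MHC class I.

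The label was given by the authors from the same RNA that is described here. Values of a condition therefore describe those cells that still carried the label in that condition, and Pi16 itself is a naming gene. No barcode was shared between Pi16+ cells of different libraries, against 60 shared barcodes among all annotated cells. Barcodes shared between a Pi16+ cell and a cell of another class were not counted apart. The healthy animals of the TNF-inhibitor and IL-17A-inhibitor libraries held mixed sex-linked transcripts, with a Y-linked UMI in 20.3% and 17.3% of their Pi16+ cells, against 3.32% in the healthy animal of the untreated library. Whether each of these hashtags holds the cells of a single animal is therefore not certain, and n = 3 for healthy mice counts hashtags as labelled. Arthritic groups also differed in sex-linked transcripts between animals. A Y-linked UMI stood in 47.4% of Pi16+ cells in untreated animal 2, 68.6% in IL-17A-inhibited animal 1 and 52.4% and 66.9% in FAP-sorted animals 1 and 2. The other fitted arthritic animals were at 0% to 8.33%, and no fit held a term for sex. On raw hashtag counts the own hashtag was the highest in 83.3% to 100% of Pi16+ cells in arthritic animals, against 32.0% (untreated library), 15.5% (TNF-inhibitor library) and 7.51% (IL-17A-inhibitor library) of healthy ones. After scaling each hashtag it was the highest in 100% of healthy Pi16+ cells. Leaving out the cells with a Y-linked UMI in the TNF-inhibitor and IL-17A-inhibitor libraries' healthy animals kept every count of called genes within 1.5 times. The wells were hyper-loaded, no doublet caller was run here, and the sources used here do not give how the submitters handled doublets. Summed depth of Pi16+ cells per animal was 178034 to 283569 UMIs in untreated arthritic, 347311 to 847195 in IL-17A-inhibited, 607297 to 1299897 in FAP-sorted and 2081498 to 3213465 in healthy animals. The median mitochondrial share of UMIs was 2.85% to 3.21% in FAP-sorted animals and 1.68% to 2.14% in healthy ones.

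Animals were told apart by 15-base hashtag oligonucleotides, which are shown because the healthy animal shared its tube with the arthritic ones and was separated from them by hashtag 4 alone. The oligonucleotides were as follows.
Hashtag 1: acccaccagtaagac
Hashtag 2: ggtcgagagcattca
Hashtag 3: cttgccgcatgtcat
Hashtag 4: aaagcattcttcacg
Hashtag 5, used in the FAP-sorted library: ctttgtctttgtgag

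The promoters below belong to the naming gene and to 3 genes of the groups that changed together in Pi16+ cells, and run from 250 bases before to 50 after the RefSeq start (GRCm38.p6, in the gene's own direction). Capitals mark a match to TTGCNNAA, the core letters of a C/EBP site, in C3, to GAAA, any 2 bases and GAAA, letters of an interferon-stimulated response element, in Bst2 (where 2 matches overlap) and B2m, and to GGG, any 2 bases and TTTCC, an NF-kB motif, on the opposite strand in B2m.
Pi16, chr17:29318632-29318931, plus strand: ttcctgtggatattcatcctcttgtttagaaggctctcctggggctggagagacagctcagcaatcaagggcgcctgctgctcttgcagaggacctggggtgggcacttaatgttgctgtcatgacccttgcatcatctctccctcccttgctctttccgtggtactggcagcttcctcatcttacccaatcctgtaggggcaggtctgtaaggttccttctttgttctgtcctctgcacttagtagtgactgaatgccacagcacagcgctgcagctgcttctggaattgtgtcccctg
C3, chr17:57228087-57228386, minus strand: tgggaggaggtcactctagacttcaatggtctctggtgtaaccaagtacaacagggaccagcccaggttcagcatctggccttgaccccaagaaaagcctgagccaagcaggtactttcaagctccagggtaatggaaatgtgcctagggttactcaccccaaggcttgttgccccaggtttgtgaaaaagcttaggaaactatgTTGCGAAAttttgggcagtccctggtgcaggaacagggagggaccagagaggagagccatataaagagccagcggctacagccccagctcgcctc
Bst2, chr8:71537423-71537722, minus strand: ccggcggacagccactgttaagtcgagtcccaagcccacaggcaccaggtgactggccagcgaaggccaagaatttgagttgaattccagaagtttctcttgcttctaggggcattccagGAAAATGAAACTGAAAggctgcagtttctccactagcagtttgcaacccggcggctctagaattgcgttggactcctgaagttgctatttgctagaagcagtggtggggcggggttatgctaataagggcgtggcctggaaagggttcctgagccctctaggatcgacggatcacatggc
B2m, chr2:122147437-122147736, plus strand: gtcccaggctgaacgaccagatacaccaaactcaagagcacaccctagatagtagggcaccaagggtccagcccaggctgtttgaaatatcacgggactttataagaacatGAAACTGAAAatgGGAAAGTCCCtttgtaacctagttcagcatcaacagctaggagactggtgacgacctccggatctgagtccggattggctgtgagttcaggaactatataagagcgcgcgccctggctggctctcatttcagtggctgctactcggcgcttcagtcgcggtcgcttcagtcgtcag

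Searched on both strands, the spaced pair of GAAA stood in the promoter window of 15 of the 27 interferon-response genes that the table holds (55.6%), against 3.44% of all 32851 windows. TTGCNNAA stood in 4 of 8 complement genes (50%), among them C3, C1ra and C1s1, and in 6 of 11 acute-phase genes (54.5%), against 10.8% of all windows. Of the Pi16 programme, 2 of 21 genes held the first motif and 4 the second. A match describes letters in this window and is not evidence of a bound factor.

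In the 3 healthy animals the Pi16+ class was set apart from the other annotated fibroblasts by Dpp4, a cell-surface dipeptidase, by Pi16 and Cd34 and by matrix genes. Levels here are UMI counts of the class summed within an animal and scaled to equal library totals (CPM), given as mean and SD. Dpp4 averaged 51.1 ± 10.4 CPM in Pi16+ cells of healthy mice, against 2.91 ± 2.78 CPM in Il6+ cells, the next class, and 0 in the Cd200+ and Mmp3+ classes. Pi16 averaged 1216 ± 295 CPM in Pi16+ cells against 364 ± 136 CPM in Il6+ cells, and Cd34 1082 ± 121 CPM against 414 ± 34.7 CPM. Pcolce2 did not mark the class in healthy joints, since it averaged 748 ± 30.6 CPM in Pi16+ cells and 670 ± 133 CPM in lining cells. It did so in FAP-sorted arthritic cells, at 263 ± 45.2 CPM in Pi16+ cells against 98.1 ± 19.7 CPM in Il6+ cells, the next class.

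Other genes that led the class in healthy mice were Myoc, the secreted glycoprotein myocilin, at 2883 ± 411 CPM against 691 ± 131 CPM in Il6+ cells, and Ccn3, a matricellular growth regulator, at 982 ± 95.3 CPM against 235 ± 76.5 CPM in Cd200+ cells. The elastic-fibre genes Fbn1 and Mfap5 and the matrix genes Tnxb, Hmcn2, Lamc1 and Fbln2 were also among the 20 genes with the highest ratio to the next class. Genes that name the other classes were each lower than in the class they name. Cd200 was at 25.5 CPM in Pi16+ cells against 406 CPM in Cd200+ cells. The lubricin gene Prg4 was at 1849 CPM against 86076 CPM in lining cells. Mmp3 was at 627 CPM against 11401 CPM in Mmp3+ cells, and Il6 at 600 CPM against 1988 CPM in Il6+ cells. They were not lower than in every class, with Il6 at 614 CPM in Cd200+ and 297 CPM in lining cells. Mmp3 was at 624 CPM in lining cells, and Prg4 at 1723 CPM in Cd200+ cells. Over 9154 genes in healthy animals, the Spearman correlation of mean levels with Pi16+ cells was 0.947 for the Il6+ class and 0.836 to 0.869 for the 3 others, all of which share animals and libraries. The number of genes more than 2-fold above every other class was 44 in healthy and 15 in FAP-sorted animals. Since the classes were made from the same counts, these differences describe the label and were not tested.

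**Figure D1:**
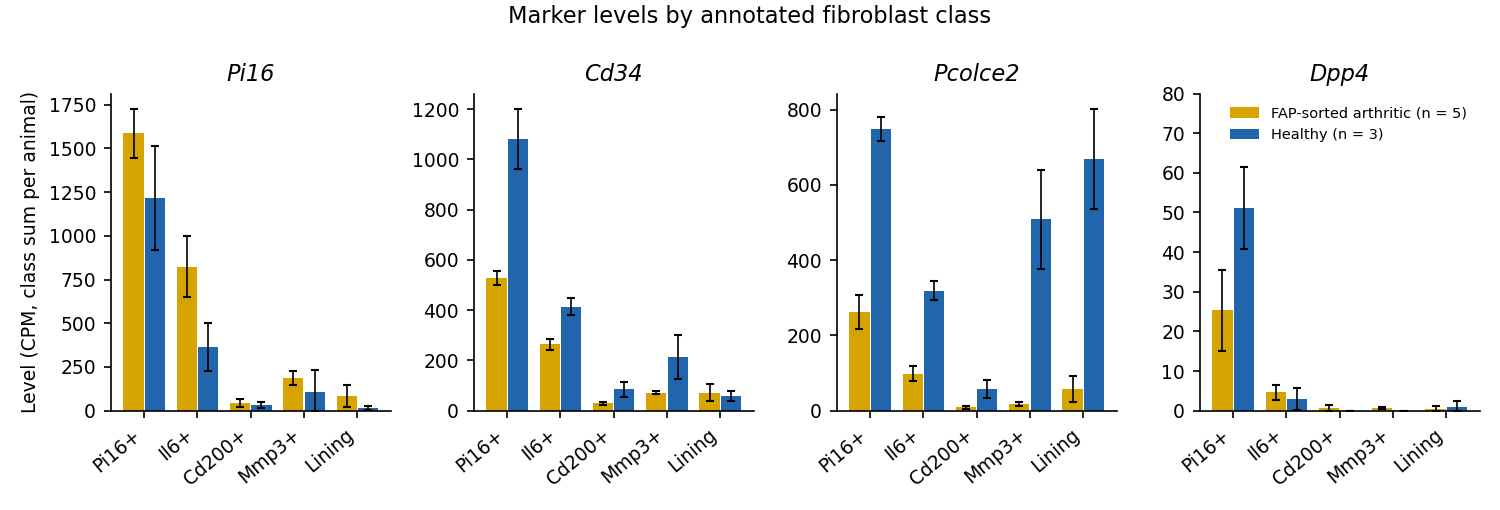
Mean level (CPM, summed cells of a class per animal) of Pi16, Cd34, Pcolce2 and Dpp4 in the 5 annotated fibroblast classes, with SD, for FAP-sorted arthritic (n = 5) and healthy (n = 3) animals. Each gene was highest in the Pi16+ class, with Pcolce2 in healthy lining cells (670 CPM) close to its level in Pi16+ cells (748 CPM).

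With every cell thinned to 3000 UMIs, Pi16 was detected in 81.1% of Pi16+ cells of untreated arthritic, 75.6% of IL-17A-inhibited, 61.8% of FAP-sorted and 61.5% of healthy animals. In Cd200+ cells it was detected in 5.32%, 5.58%, 7.92% and 5.92%, and in Mmp3+ cells in 17.3%, 11.9%, 22.5% and 19.4%. The part of free RNA in these shares was not tested. Il6+ cells held Pi16 UMIs more often in arthritic than in healthy joints, at 42.5% in untreated arthritic and 50.2% in FAP-sorted against 30.2% in healthy animals. Pi16 was thus not restricted to the labelled cells. Without thinning, Pi16 was seen in 88.9%, 87.0%, 73.0% and 78.0% of Pi16+ cells in the same 4 groups, and shallower cells left out by thinning numbered 1, 0, 24 and 14.

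Pi16+ cells were a small remnant of the fibroblasts in arthritic joints. They made up 1.40%, 0.933% and 1.25% of fibroblasts in the untreated arthritic mice, 0.354%, 0.0566% and 0.238% in TNF-inhibited mice and 2.92%, 3.49% and 1.07% in IL-17A-inhibited mice, against 44.2%, 42.9% and 41.9% in the healthy mice. The healthy animals did not overlap with those of any arthritic group, and the share in arthritic animals was lower than in the healthy animal of the same library in all 9. The mean difference within libraries was -41.7 percentage points (two-sided exact permutation test within libraries, p = 0.0156, the smallest that 64 arrangements allow). Without any 1 healthy animal the smallest attainable p was 0.0625, with differences of -42.8 to -41.0. A share falls also when other classes expand, so fewer Pi16+ cells and more of the others cannot be told apart.

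The FAP-sorted arthritic mice had Pi16+ shares of 7.51%, 11.1%, 5.17%, 7.63% and 11.2%, all above those of the untreated arthritic mice of the unsorted library. The difference was 7.32 percentage points (two-sided exact permutation test, p = 0.0179, the smallest that 56 arrangements allow). It was 7.58 without FAP-sorted animal 1 and 7.55 without animal 4, each with p = 0.0571 in the same exact test.

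**Figure D2:**
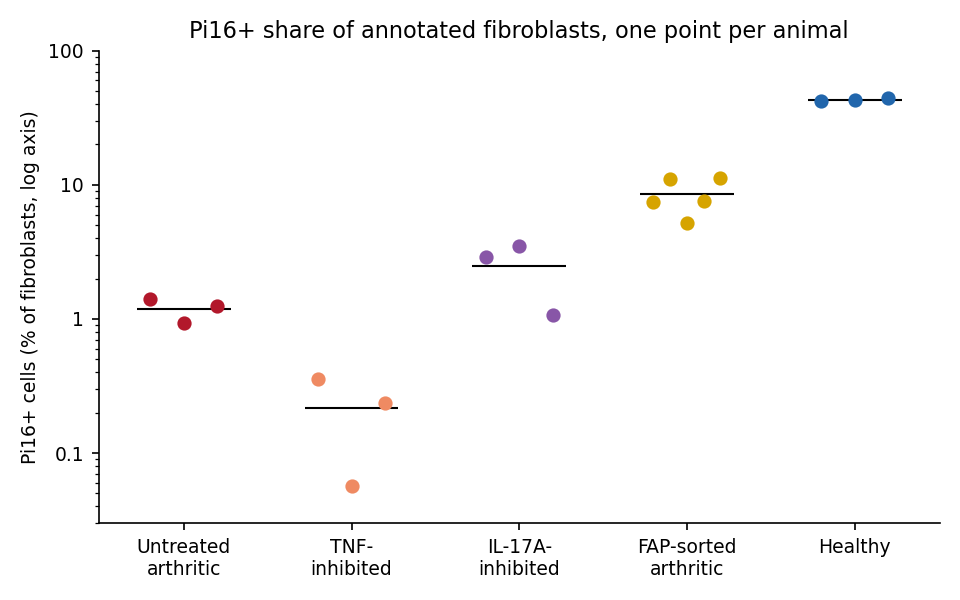
Pi16+ cells as a percentage of annotated fibroblasts in each animal (log axis), with the group mean as a bar. Untreated arthritic animals lie at 0.933% to 1.40%, TNF-inhibited at 0.0566% to 0.354%, IL-17A-inhibited at 1.07% to 3.49%, FAP-sorted at 5.17% to 11.2% and healthy at 41.9% to 44.2%.

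The cells that carried the label were then compared between conditions. Counts of Pi16+ cells were summed per animal for the 14 animals with at least 10 such cells, and log2 fold changes with SE come from edgeR's quasi-likelihood test with Benjamini-Hochberg adjustment over 8070 genes. Levels in the following paragraphs are CPM with TMM-scaled library sizes. A total of 283 genes (3.51%) passed an adjusted p of 0.05 in untreated arthritic against healthy Pi16+ cells, 188 higher and 95 lower. In IL-17A-inhibited against healthy cells 299 genes (3.71%) passed, and in FAP-sorted against healthy cells 2176 (27%). The 3 comparisons share the healthy animals. With library as a term, which leaves each comparison its own healthy animal as control, 22 genes passed in untreated arthritic and 22 in IL-17A-inhibited cells. With at least 20 Pi16+ cells per animal the first count was 98. Without untreated animal 1 the first count was 184, and without the healthy animal of the IL-17A-inhibitor or TNF-inhibitor library it was 175 and 161. The second was 197 and 195 without the healthy animal of the TNF-inhibitor or untreated library.

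Complement genes were higher in arthritic Pi16+ cells of every group tested. Of 13 listed genes 10 could be tested, and 7 rose in untreated arthritic, 7 in IL-17A-inhibited and 8 in FAP-sorted cells, where 2.33%, 2.07% and 14.2% of all genes tested were higher. The median log2 fold change of the list was 1.33, 1.29 and 1.71, against 0.00, 0.01 and -0.01 over all genes. Leaving out 1 animal gave 6 or 7, 6 or 7, and 8 genes. With library as a term, 2 genes were called in untreated arthritic and 2 in IL-17A-inhibited cells.

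C3, the central complement protein, was at 6757, 7208 and 7434 CPM in untreated arthritic, 7260, 6292 and 7498 CPM in IL-17A-inhibited and 10262, 8993, 11301, 8738 and 9428 CPM in FAP-sorted animals, against 1489, 907 and 1031 CPM in healthy animals. Every arthritic animal stood above every healthy one, and the log2 fold changes were 2.64 ± 0.16 (adjusted p = 4.2e-09), 2.62 ± 0.16 (4.7e-09) and 3.09 ± 0.16 (1.2e-10). C4b, a component of the classical pathway, was at 572, 489 and 419 CPM in untreated arthritic and 320, 446 and 680 CPM in IL-17A-inhibited animals, against 76.5, 67.6 and 76.4 CPM in healthy ones. It was at 592 to 1111 CPM in FAP-sorted animals, so that all groups were apart from healthy (log2 fold changes 2.74 ± 0.26, 2.70 ± 0.25 and 3.38 ± 0.24). Reads of C4b can be split with its near-identical copy C4a. Cfb, the protease of the alternative pathway, was at 606, 729 and 552 CPM in untreated arthritic, 405, 299 and 834 CPM in IL-17A-inhibited and 1174 to 1536 CPM in FAP-sorted animals, against 201, 162 and 141 CPM in healthy ones. Its increase was larger in FAP-sorted than in untreated arthritic cells by 1.15 ± 0.24 (adjusted p = 0.0070 in the direct comparison, not called without untreated animal 3 or when animals with fewer than 20 Pi16+ cells were left out).

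C1s1 and C1ra, the initiating proteases, and Serping1, their inhibitor, rose in all 3 comparisons, by 1.69, 1.58 and 1.07 in untreated arthritic cells. C2 rose in IL-17A-inhibited (1.24) and FAP-sorted cells (2.60) and was at 0.82 ± 0.39 in untreated arthritic cells, which did not pass (adjusted p = 0.34). The IL-17A-inhibited call of C2 was lost without animal 2 or 3 of that group or without the healthy animal of the TNF-inhibitor library. Cd55, which protects cells from complement and is also a Pi16 programme gene, fell by 0.90 in FAP-sorted cells (adjusted p = 0.0025).

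Acute-phase genes changed in part. Of 20 tested genes of the acute-phase and IL-17 list, 5 rose in untreated arthritic, 3 in IL-17A-inhibited and 11 in FAP-sorted cells, against 2.33%, 2.07% and 14.2% of all genes tested, and 0, 1 and 3 fell. The 3 that fell in FAP-sorted cells are near the 12.8% of all genes that fell there. The count in untreated arthritic cells was 3 without animal 2 or without the healthy animal of the IL-17A-inhibitor or untreated library. Slc39a14, a zinc and iron importer induced by inflammation, was at 446, 535 and 447 CPM in untreated arthritic, 415, 301 and 314 CPM in IL-17A-inhibited and 340 to 445 CPM in FAP-sorted animals, against 85.7, 92.4 and 98.8 CPM in healthy animals. The groups did not overlap (log2 fold changes 2.37 ± 0.17, 1.90 ± 0.17 and 2.11 ± 0.15). Lbp, the lipopolysaccharide-binding protein, rose by 1.80, 1.21 and 1.97. Serpina3n, a secreted protease inhibitor, was at 2403, 1938 and 1590 CPM in untreated arthritic, 1040, 619 and 1852 CPM in IL-17A-inhibited and 1971 to 2680 CPM in FAP-sorted animals, against 182, 186 and 220 CPM in healthy ones. It was called in all 3 comparisons (log2 fold changes 3.33, 2.56 and 3.54), with related serpin genes nearby whose reads could be shared.

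Saa3, an acute-phase apolipoprotein, followed another pattern. It was at 1196, 1966 and 1698 CPM in untreated arthritic and 457, 856 and 2165 CPM in IL-17A-inhibited animals, against 1917, 1979 and 530 CPM in healthy ones, and these overlapped. In FAP-sorted animals it was at 12211, 7689, 9657, 14040 and 8742 CPM, above every other animal (2.83 ± 0.43 against healthy, adjusted p = 6.7e-05). Against untreated arthritic cells it was 2.69 ± 0.43 higher (adjusted p = 0.00099), a call that was lost when untreated animals with fewer than 20 Pi16+ cells were left out.

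Genes of antigen presentation and interferon-induced GTPases formed the second group that rose. Of 30 listed interferon-response genes 24 could be tested, and 10 rose in untreated arthritic, 16 in IL-17A-inhibited and 12 in FAP-sorted cells, with medians of 1.10, 1.77 and 1.08, against medians over all genes of 0.00, 0.01 and -0.01. Of all genes tested 2.33%, 2.07% and 14.2% rose. The count in untreated arthritic cells was 5 without animal 3 and 6 or 7 without the healthy animal of an inhibitor library, and that in IL-17A-inhibited cells was 10 without animal 2. With library as a term the counts were 1 and 4. The members that rose in FAP-sorted cells included the MHC class I and peptide-loading genes B2m, H2-K1, H2-D1, Psmb8 and Tap1, the GTPases Iigp1, Igtp, Ifi47, Gbp3 and Gbp7, and Bst2. Ifit1, Ifit2, Isg15 and Irf7, which respond to type I interferon, did not pass there, with log2 fold changes of -0.93, -0.56, 1.48 and 0.33. Irf1, a transcription factor induced by interferon, fell by 0.77.

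Iigp1 was at 149, 208 and 325 CPM in untreated arthritic, 119, 277 and 299 CPM in IL-17A-inhibited and 225, 227, 262, 58.8 and 181 CPM in FAP-sorted animals, against 26.7, 17.2 and 18.0 CPM in healthy ones. FAP-sorted animal 4 was the lowest of the arthritic animals and still above the healthy ones (log2 fold changes 3.47 ± 0.46, 3.45 ± 0.43 and 3.16 ± 0.39). Zbp1, a sensor of nucleic acids and not a member of the list, rose by 3.10, 3.13 and 2.67, to 45.8, 55.4 and 52.4 CPM in untreated arthritic animals against 5.93, 5.20 and 6.65 CPM in healthy ones.

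B2m, the invariant chain of MHC class I, was at 990, 1961 and 1601 CPM in untreated arthritic, 2550, 4024 and 3183 CPM in IL-17A-inhibited and 1175 to 1783 CPM in FAP-sorted animals, against 599, 655 and 735 CPM in healthy ones. All arthritic animals were above the healthy range, with the IL-17A-inhibited animals highest (1.20 ± 0.22, 2.29 ± 0.23 and 1.13 ± 0.20). H2-K1, a class I heavy chain, was at 458, 678 and 444 CPM in untreated arthritic and 1067, 1677 and 1239 CPM in IL-17A-inhibited animals, against 302, 264 and 294 CPM in healthy animals (0.88 ± 0.21 and 2.21 ± 0.21). The call for H2-K1 in untreated arthritic cells was lost without animal 2 of that group or without the healthy animal of either inhibitor library. IL-17A-inhibited and untreated arthritic animals were in different libraries, so treatment and library cannot be told apart, and the difference between them was not tested.

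**Figure D3:**
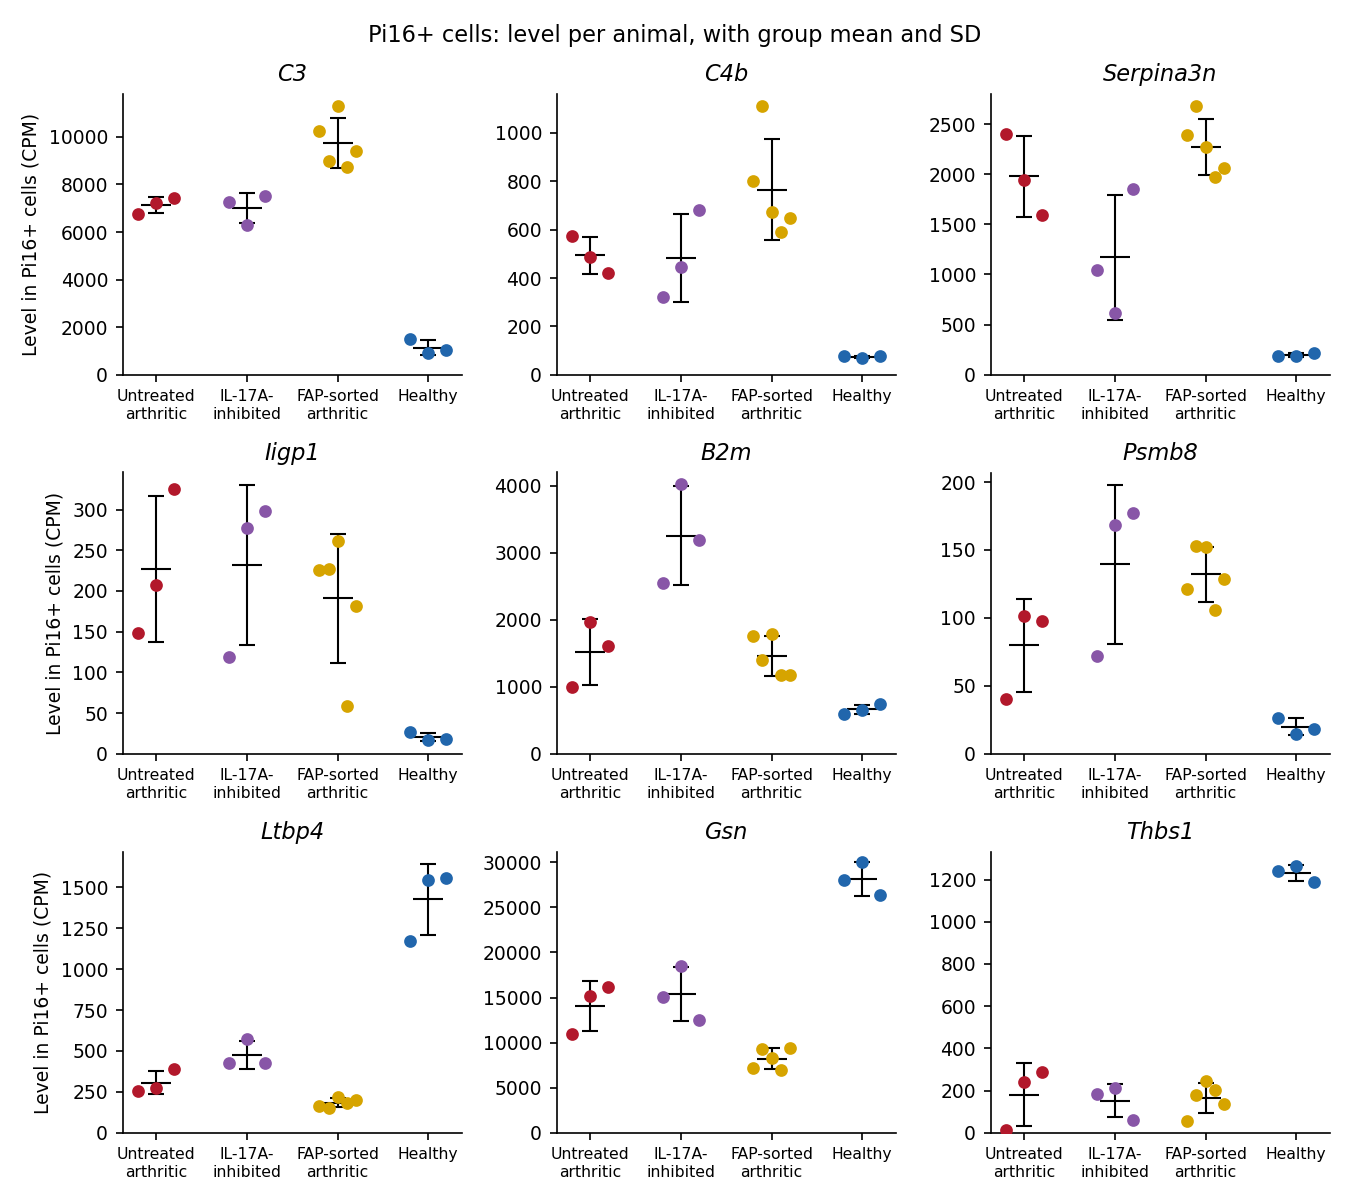
Level (CPM) of 9 genes in Pi16+ cells of each animal in untreated arthritic (n = 3), IL-17A-inhibited (n = 3), FAP-sorted arthritic (n = 5) and healthy (n = 3) groups, with group mean and SD. C3, C4b, Serpina3n, Iigp1, B2m and Psmb8 lie above the healthy animals in every arthritic animal, and Ltbp4, Gsn and Thbs1 lie below them.

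Among the genes that fell in all 3 comparisons were Ltbp4, Thbs1 and Gsn. Of 22 tested genes of the microfibril and elastic fibre list, 2 fell in untreated arthritic, 3 in IL-17A-inhibited and 6 in FAP-sorted cells, where 6 rose. Of all genes tested, 1.18%, 1.64% and 12.8% fell in these comparisons, and 14.2% rose in FAP-sorted cells. The list medians were -0.17, -0.07 and -0.17. Ltbp4, which tethers latent TGF-beta to elastic fibres, was at 257, 272 and 388 CPM in untreated arthritic, 426, 574 and 426 CPM in IL-17A-inhibited and 149 to 220 CPM in FAP-sorted animals, against 1175, 1546 and 1559 CPM in healthy animals. The groups did not overlap, and Ltbp4 fell by 2.20, 1.58 and 2.96. Thbs1, a matricellular protein that activates latent TGF-beta, was at 11.4, 240 and 290 CPM in untreated arthritic, 186, 210 and 62.1 CPM in IL-17A-inhibited and 56.7 to 246 CPM in FAP-sorted animals, against 1242, 1264 and 1191 CPM in healthy ones. Every arthritic animal was below the healthy ones, and Thbs1 fell by 2.69, 2.95 and 2.91. Gsn, the actin-severing gelsolin, was at 10968, 15136 and 16213 CPM in untreated arthritic, 15105, 18536 and 12491 CPM in IL-17A-inhibited and 6982 to 9415 CPM in FAP-sorted animals, against 28012, 30047 and 26360 CPM in healthy ones. It fell by 1.00, 0.87 and 1.77.

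The list of genes of the Col15a1 reticular state, a neighbouring fibroblast type, had 14 tested members. In untreated arthritic cells 4 fell and 2 rose, in IL-17A-inhibited cells 6 fell, and in FAP-sorted cells 3 fell and 4 rose, where 1.18%, 1.64% and 12.8% of all genes tested were lower and 2.33%, 2.07% and 14.2% higher. In untreated arthritic cells 2 or 3 fell and 0 to 2 rose in fits without 1 animal, with 2 falls without animal 3 or without the healthy animal of either inhibitor library, and 0 rises without animal 1. Col15a1 itself, a basement membrane collagen, was at 11.4, 8.37 and 8.87 CPM in IL-17A-inhibited animals, against 149, 112 and 138 CPM in healthy ones, and fell by 3.80. Its call in untreated arthritic cells was lost in each fit without 1 animal. Smoc2, a matrix-bound calcium-binding protein, was at 5.72, 138 and 108 CPM in untreated arthritic, 83.4, 67.0 and 94.7 CPM in IL-17A-inhibited and 148 to 468 CPM in FAP-sorted animals, against 599, 469 and 525 CPM in healthy ones. Every arthritic animal was below the healthy ones, FAP-sorted animal 5 only just, and Smoc2 fell by 2.57, 2.73 and 0.90.

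Insig1, which restrains sterol synthesis, was named by its size of change and belonged to no list. It was at 5.72, 18.5 and 10.5 CPM in untreated arthritic, 15.2, 50.2 and 11.8 CPM in IL-17A-inhibited and 10.5 to 24.3 CPM in FAP-sorted animals, against 108, 70.0 and 61.7 CPM in healthy animals. Every arthritic animal was below the healthy ones, and Insig1 fell by 2.76, 1.42 and 2.23. Its untreated arthritic call rests on few UMIs and was lost without animal 3. Scg3, a granin of secretory vesicles, was at 5.72, 23.1 and 6.99 CPM in untreated arthritic and 5.20 to 26.4 CPM in FAP-sorted animals, against 176, 129 and 149 CPM in healthy ones, and fell by 3.67 and 3.74.

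The genes of the Pi16 state itself were then examined as a list of 32, of which 29 could be tested. In untreated arthritic Pi16+ cells 4 rose and 3 fell, in IL-17A-inhibited cells 3 rose and 0 fell, and in FAP-sorted cells 3 rose and 19 fell. The medians were 0.09, 0.29 and -0.69. Of all genes tested, 2.33% rose and 1.18% fell in untreated arthritic and 2.07% rose in IL-17A-inhibited cells. In untreated arthritic cells 3 to 5 programme genes rose and 0 to 2 fell in fits without 1 animal, with 0 falls without animal 1 or without the healthy animal of the TNF-inhibitor library, and with a library term 0 rose and 0 fell. The 19 genes that fell in FAP-sorted cells (65.5% of those tested) compare with 12.8% of all genes, and 15 to 18 fell in fits without 1 animal. The 3 that rose there were no larger a share than the 14.2% of all genes that rose.

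Pi16 was at 4944, 2930 and 3893 CPM in untreated arthritic, 1768, 1903 and 5147 CPM in IL-17A-inhibited and 1437, 1726, 1827, 1759 and 1641 CPM in FAP-sorted animals, against 1463, 1136 and 942 CPM in healthy animals. The untreated arthritic animals were all above the others except IL-17A-inhibited animal 3. The log2 fold changes against healthy were 1.73 ± 0.29 (adjusted p = 0.0015), 1.31 ± 0.29 (0.011) and 0.51 ± 0.26 (0.16). The untreated arthritic call was lost with a library term and when the untreated library's own healthy animal was the only control. The IL-17A-inhibited call was lost without animal 3 or without the healthy animal of either inhibitor library. Since Pi16 was used to name the cells, a change in its level and a change in which cells kept the name cannot be told apart.

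Ly6a, the stem cell antigen Sca-1, was at 2832, 2543 and 2730 CPM in untreated arthritic, 2768, 2794 and 3026 CPM in IL-17A-inhibited and 2250 to 2648 CPM in FAP-sorted animals, against 1340, 1315 and 1371 CPM in healthy ones. The groups were apart, and Ly6a rose by 1.01 ± 0.12, 1.09 ± 0.12 and 0.87 ± 0.11. Ly6c1, of the same family, rose by 0.83, 0.93 and 0.50, and its FAP-sorted call was lost without the healthy animal of the untreated library. Ackr3, a scavenger receptor for Cxcl12, rose by 0.87 in untreated arthritic cells, a call lost without animal 1, and was at 0.43 ± 0.17 in IL-17A-inhibited and -0.32 ± 0.15 in FAP-sorted cells, which did not pass.

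Cd34 was at 527, 534, 575, 596 and 567 CPM in FAP-sorted animals, against 1162, 1008 and 985 CPM in healthy ones, and fell by 0.91 (adjusted p = 8.2e-06). Pcolce2 was at 339, 318, 237, 229 and 267 CPM in FAP-sorted animals, against 690, 767 and 730 CPM in healthy ones, and fell by 1.39 (1.8e-06). In untreated arthritic cells these were -0.34 ± 0.13 and -0.25 ± 0.18 (adjusted p = 0.22 and 0.57). Set directly against untreated arthritic cells, FAP-sorted cells were lower in Pi16 by a log2 change of -1.22 ± 0.25 (not called when animals with fewer than 20 Pi16+ cells were left out), in Cd34 by -0.57 ± 0.12 and in Pcolce2 by -1.14 ± 0.16, and 10 of the 29 programme genes fell while 0 rose (2.95% of all genes tested fell). Dpp4 fell by 0.84 in FAP-sorted against healthy cells, a call lost without the healthy animal of the untreated library, and Smpd3, a sphingomyelinase, by 2.47. The label came from the same RNA. For Cd34, Pcolce2 and the other programme genes too, a change in level and a change in the cells labelled cannot be told apart.

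**Figure D4:**
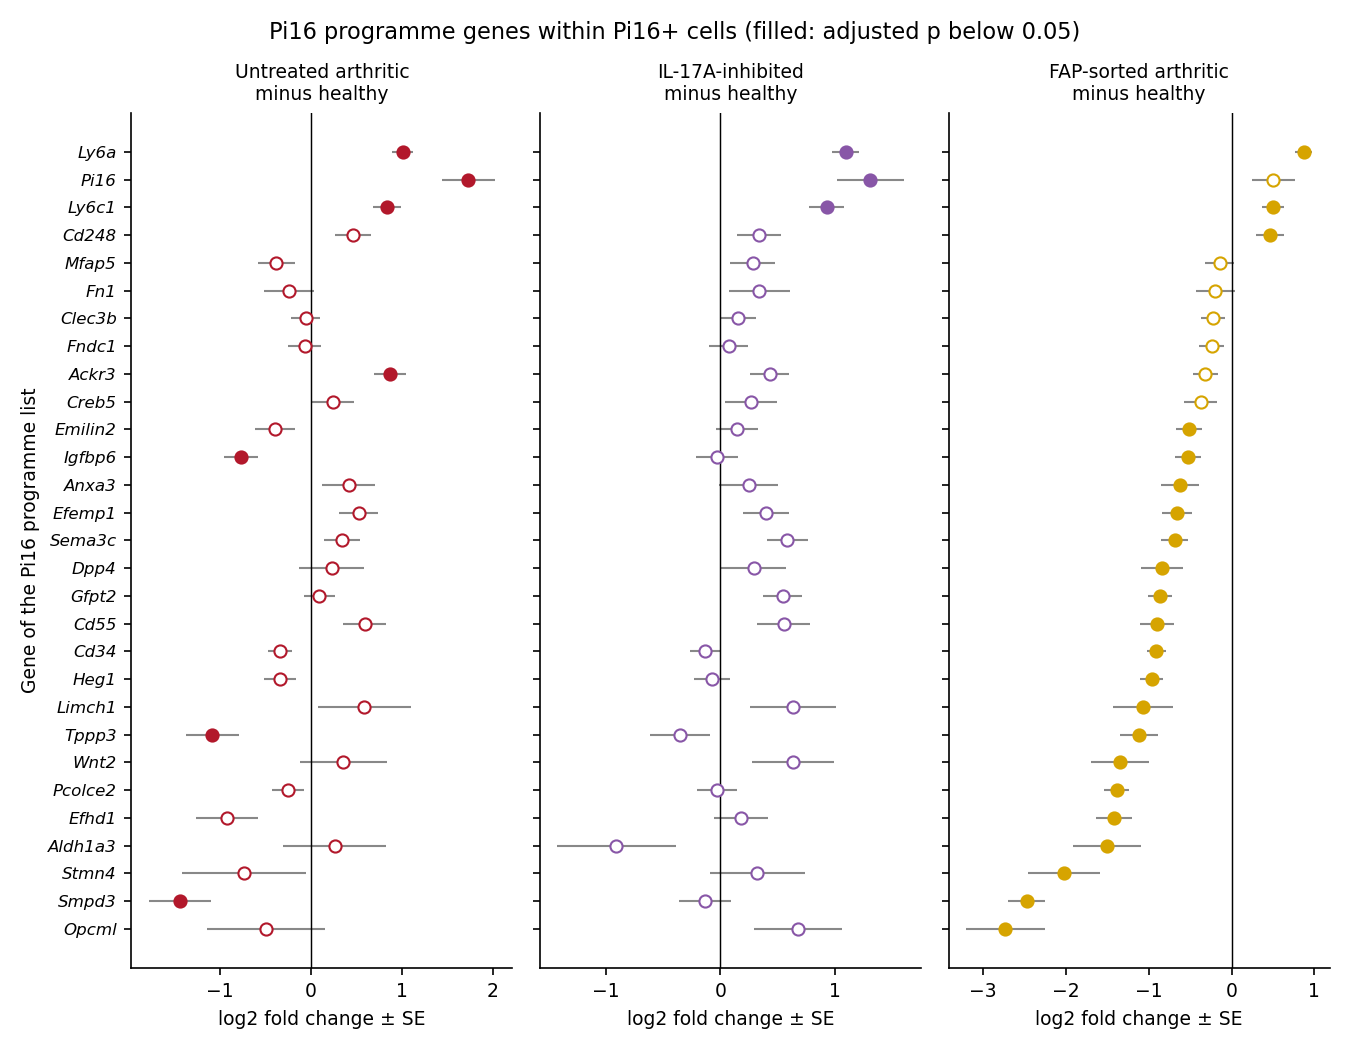
Log2 fold change (± SE) of the 29 tested genes of the Pi16 programme within Pi16+ cells, in untreated arthritic, IL-17A-inhibited and FAP-sorted arthritic animals, each minus healthy, with filled points for an adjusted p below 0.05. In FAP-sorted cells 19 filled points lie below 0 and 3 above, against 3 below and 4 above in untreated arthritic cells. Of all genes tested, 12.8% fell and 14.2% rose in FAP-sorted cells, and 1.18% fell and 2.33% rose in untreated arthritic cells.

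In IL-17A-inhibited Pi16+ cells immediate early genes, which are induced by growth factors, stress and tissue handling, were lower than in healthy cells. Of a list of 20 immediate early and heat shock genes 8 fell, all of them immediate early genes such as Fos, Jun and Egr1, and 0 rose (1.64% of all genes tested fell), with a median of -0.52, and 3 to 8 fell in fits without 1 animal. Jun was at 907, 873 and 914 CPM in IL-17A-inhibited animals, against 2266, 1778 and 1707 CPM in healthy ones, and fell by 1.09. Btg2, an antiproliferative gene, was at 572, 557 and 278 CPM, against 1207, 973 and 1005 CPM in healthy ones, and fell by 1.16. Of the same list 0 genes passed in untreated arthritic cells. With library as a term, over untreated arthritic and IL-17A-inhibited animals together, 0 of the 20 genes passed (median -0.24). The authors' stress score, whose genes are not given, had a median of 0.522 to 0.638 in IL-17A-inhibited and 0.710 to 0.946 in healthy Pi16+ cells, without overlap. The median mitochondrial share of UMIs was 1.40% to 1.76% in IL-17A-inhibited and 1.68% to 2.14% in healthy Pi16+ cells. The lowest healthy values of both, 0.710 and 1.68%, were those of the IL-17A-inhibitor library's own healthy animal. The part of either measure in this difference was not tested.

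Cxcl14, a chemokine of resting fibroblasts, was at 371, 188 and 210 CPM in IL-17A-inhibited animals, against 939, 869 and 1044 CPM in healthy ones, and fell by 1.89 (adjusted p = 0.00038). Untreated arthritic animals were at 441, 909 and 332 CPM (-0.77 ± 0.28, adjusted p = 0.17), and FAP-sorted animals at 1836 to 3019 CPM, a rise of 1.48. Il6 was at 296, 279 and 148 CPM in IL-17A-inhibited animals, against 728, 555 and 463 CPM in healthy ones. It fell by 1.25 (adjusted p = 0.025), but was not called without IL-17A-inhibited animal 3 or without the healthy animal of the TNF-inhibitor or untreated library.

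FAP-sorted Pi16+ cells differed from untreated arthritic ones in 466 genes (5.77%), 228 higher and 238 lower, and in 296 and 208 genes without untreated animal 2 or 3. With at least 20 Pi16+ cells per animal the count was 95, with 33 higher and 62 lower. Against healthy cells, 9 of 24 collagen and fibrillar matrix genes rose and 3 fell, and 8 of 16 matrix-degradation genes rose and 3 fell, where 14.2% of all genes rose and 12.8% fell. The 3 falls among the collagen and fibrillar matrix genes are near that share. Mmp3, stromelysin-1, was at 2215, 3012, 2416, 2889 and 1477 CPM in FAP-sorted animals, against 1018, 729 and 713 CPM in untreated arthritic and 837, 579 and 406 CPM in healthy animals. All 5 stood above both groups (1.98 ± 0.24 against healthy). Timp3, an inhibitor of matrix proteases, was at 62.0, 103, 198, 169 and 211 CPM in FAP-sorted animals, against 875, 621 and 563 CPM in healthy ones, and fell by 2.21. Cxcl12, the chemokine that binds Ackr3, rose by 2.06 to 2018 to 2354 CPM in FAP-sorted animals, against 595, 506 and 451 CPM in healthy ones. Fap itself, a target of the sort, was at 64.6 to 81.5 CPM in FAP-sorted, 52.4 to 64.6 CPM in untreated arthritic and 46.5 to 66.4 CPM in healthy Pi16+ cells, and did not pass (0.33 ± 0.15, adjusted p = 0.11).

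Markers of other cells moved with these comparisons. The summed level of 8 muscle genes was 171 to 4892 CPM in untreated arthritic Pi16+ cells, highest in animal 1, and 65.1 to 1652 CPM in IL-17A-inhibited, 7.83 to 71.0 CPM in FAP-sorted and 85.9 to 234 CPM in healthy cells. Of the 10 genes that fell most in FAP-sorted against untreated arthritic cells, 9 were muscle genes such as Ckm, Acta1 and Myl1. A list of 7 neutrophil genes summed to 85.7 to 127 CPM in FAP-sorted cells and 11.4 to 23.1 CPM in the other groups, with S100a8 and S100a9 called. A list of 6 tendon genes summed to 274 to 617 CPM in FAP-sorted, 68.7 to 136 CPM in untreated arthritic, 76.5 to 290 CPM in IL-17A-inhibited and 116 to 206 CPM in healthy cells, so that IL-17A-inhibited animal 3 lay within the FAP-sorted range. A list of 11 cartilage and bone genes summed to 1217 to 1721 CPM in FAP-sorted, 175 to 933 CPM in untreated arthritic, 353 to 625.2 CPM in IL-17A-inhibited and 818 to 825 CPM in healthy cells. A list of 8 keratinocyte genes summed to 39.2 to 127 CPM in FAP-sorted, 198 to 391 CPM in untreated arthritic, 347 to 669 CPM in IL-17A-inhibited and 230 to 435 CPM in healthy cells. Most of this sum was Krtdap, so it is a poor measure of keratinocyte RNA. In plain CPM Krtdap was at 202 in untreated animal 1 (list sum 212) and at 614 in IL-17A-inhibited animal 1 (list sum 669). Krt5, Krt14, Krt15, Krt1 and Dsp had 0 UMIs in FAP-sorted cells. The leukocyte list was at 3.32 to 39.2 CPM, with Ptprc, the CD45 gene, at 0 in all 14 animals. The part of these cells in the results was not tested.

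Arthritic and healthy animals were also compared within the unsorted libraries, with library as a term and 6 arthritic and 3 healthy animals. A total of 128 of 6187 genes (2.07%) passed, 76 higher and 52 lower. The TNF-inhibitor library gave only a healthy animal to this fit. Of 9 complement genes tested 6 rose, and of 23 interferon-response genes 11 rose, where 1.23% of all genes tested rose. C3 rose by 2.50 ± 0.17, C4b by 2.67 ± 0.29, Iigp1 by 3.37 ± 0.40, Zbp1 by 3.02 ± 0.33 and Slc39a14 by 2.12 ± 0.24, and Ltbp4 fell by 1.82. These 6 genes were called under each alternative that was run. Pi16 did not pass in this fit (1.53 ± 0.37, adjusted p = 0.050). The count was 27 without the healthy animal of the IL-17A-inhibitor library and 23 without that of the untreated library, and the complement genes called were then 2 and the interferon-response genes 1 and 4.

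The change in Pi16+ cells was set against that in Il6+ cells, the class most like them, in the same unsorted animals, with a term for each animal. The difference of the 2 changes passed for 79 of 10542 genes (0.749%), 22 higher in Pi16+ cells and 57 lower. DESeq2 gave 42 higher and 43 lower, and RLE size factors 30 higher and 51 lower. Without 1 healthy animal it passed for 43, 38 or 33 genes (IL-17A-inhibitor, TNF-inhibitor and untreated library). Levels here are plain CPM.

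C4b averaged 483 ± 119 CPM in arthritic Pi16+ cells against 75.6 ± 5.83 CPM in healthy ones, and 1069 ± 188 CPM in arthritic Il6+ cells against 753 ± 78.2 CPM in healthy ones (SD, n = 6 and 3). The change was 2.06 ± 0.24 larger in Pi16+ cells (adjusted p = 9.8e-05), which stayed below Il6+ cells in level. C3 did not differ in its change (0.38 ± 0.13, adjusted p = 0.26). For Thbs1 the levels were 166 ± 108 CPM in arthritic and 1267 ± 54.0 CPM in healthy Pi16+ cells, and 379 ± 176 CPM in arthritic and 547 ± 85.3 CPM in healthy Il6+ cells (-2.35 ± 0.41). Smoc2 was at 82.5 ± 45.0 CPM in arthritic and 546 ± 76.2 CPM in healthy Pi16+ cells, and at 178 ± 73.4 CPM in arthritic and 208 ± 3.54 CPM in healthy Il6+ cells (-2.50 ± 0.25, adjusted p = 1.3e-05). Both genes were thus above Il6+ cells in healthy and below them in arthritic joints.

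The means of Cxcl14 and Col4a1 moved in opposite directions in the 2 classes. Cxcl14 averaged 406 ± 264 CPM in arthritic and 976 ± 84.9 CPM in healthy Pi16+ cells, and 4733 ± 819 CPM in arthritic and 1877 ± 124 CPM in healthy Il6+ cells (-2.85 ± 0.28, adjusted p = 1.3e-05). All 6 arthritic Il6+ values were above all healthy ones. Col4a1, a basement membrane collagen, averaged 329 ± 107 CPM in arthritic and 483 ± 43.6 CPM in healthy Pi16+ cells, and 624 ± 188 CPM in arthritic and 393 ± 44.8 CPM in healthy Il6+ cells (-1.30 ± 0.14). Of 22 cytokine and chemokine genes tested, 4 had a lower change in Pi16+ cells and 0 a higher one, where 0.541% of all genes were lower. These were Cxcl14, Cxcl13, Cxcl9 and Csf3, against 1 gene called without the healthy animal of the untreated library and 2 by DESeq2. Cxcl9 averaged 57.1 CPM in arthritic and 26.8 CPM in healthy Pi16+ cells, and 367 CPM in arthritic and 52.9 CPM in healthy Il6+ cells. Saa3 was among the lower genes (-1.41 ± 0.27), a call lost without the healthy animal of the TNF-inhibitor or untreated library.

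Of 31 tested Pi16 programme genes, 2 had a higher change in Pi16+ cells and 0 a lower one. Of all genes tested, 0.209% were higher and 0.541% lower. Pcolce2 averaged 656 ± 120 CPM in arthritic and 748 ± 30.6 CPM in healthy Pi16+ cells, and 140 ± 15.4 CPM in arthritic and 319 ± 24.3 CPM in healthy Il6+ cells (0.92 ± 0.18). Clec3b, a plasminogen-binding lectin, averaged 1228 CPM in arthritic and 1230 CPM in healthy Pi16+ cells. In Il6+ cells it averaged 348 CPM in arthritic and 632 CPM in healthy animals (0.76 ± 0.17). The Pcolce2 call was lost without any 1 healthy animal. Krtdap, Sbsn and Dmkn, neighbouring genes first known from keratinocytes, also had higher changes in Pi16+ cells. Krtdap averaged 322 ± 167 CPM in arthritic and 292 ± 75.5 CPM in healthy Pi16+ cells, and 29.7 ± 11.3 CPM in arthritic and 157 ± 96.9 CPM in healthy Il6+ cells (2.23 ± 0.33, adjusted p = 0.0018). Krt14, a defining keratinocyte gene, ran from 0 to 50.8 CPM in arthritic and 7.16 to 34.1 CPM in healthy Pi16+ cells, and from 4.04 to 22.9 CPM in arthritic and 5.68 to 17.4 CPM in healthy Il6+ cells.

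**Figure D5:**
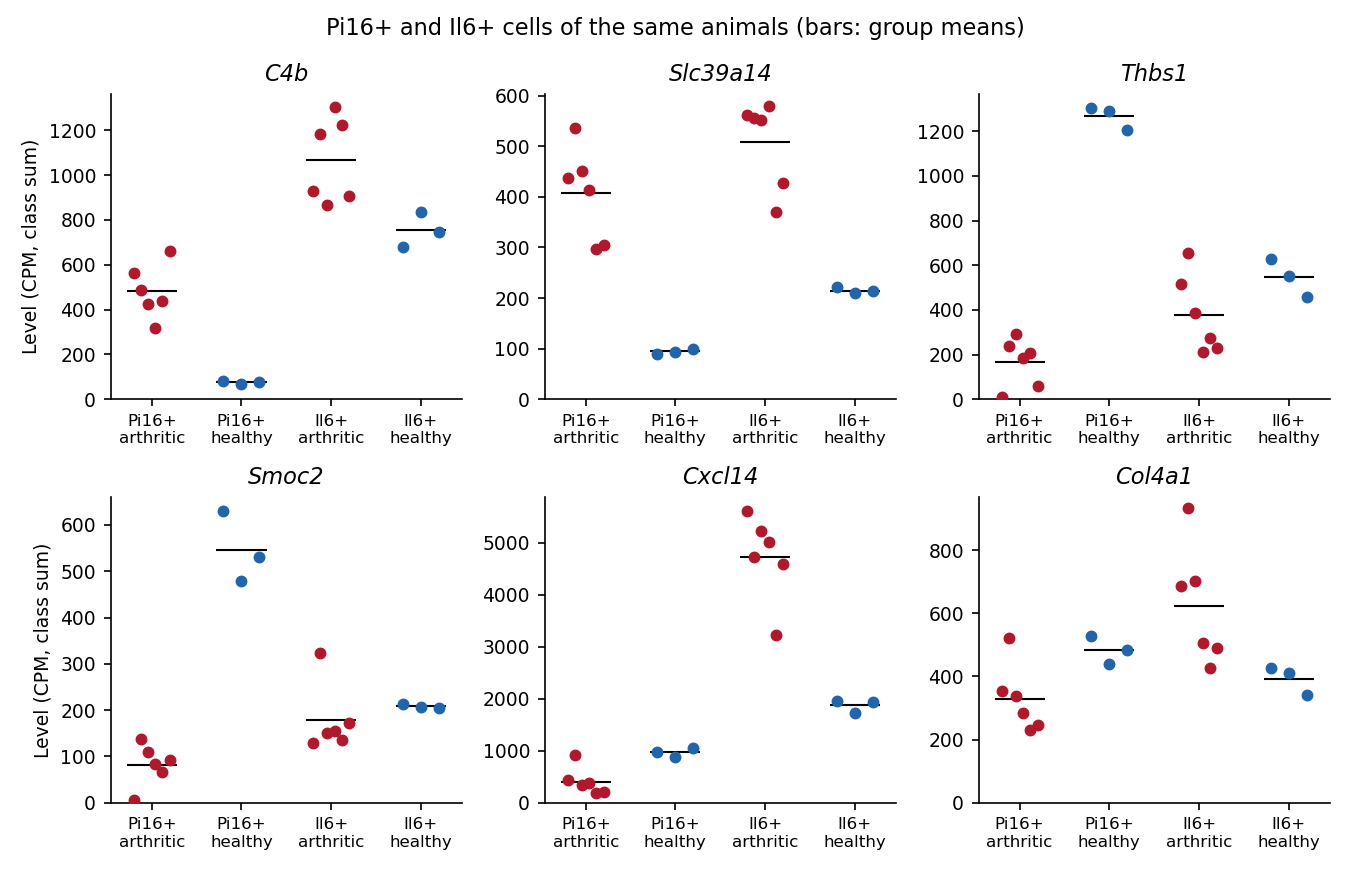
Level (CPM) of 6 genes in Pi16+ and Il6+ cells of the same arthritic (untreated and IL-17A-inhibited, n = 6) and healthy (n = 3) animals, with group means as bars. C4b and Slc39a14 differ more between arthritic and healthy in Pi16+ cells, and Thbs1, Smoc2, Cxcl14 and Col4a1 are lower in arthritic Pi16+ cells on average.

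The TNF-inhibited mice had 6, 1 and 2 Pi16+ cells, so no comparison was fitted, and their summed 102011 UMIs are given with exact Poisson intervals at 95%, which cover counting error only. C3 was at 3764 CPM (3397 to 4160), which lies between the untreated arthritic and the healthy animals. Pi16 was at 3608 CPM (3248 to 3996), Ly6a at 3323 CPM (2979 to 3696) and B2m at 3147 CPM (2812 to 3510), each above the healthy range of 942 to 1463, 1315 to 1371 and 599 to 735 CPM. Ltbp4 was at 216 CPM (135 to 327), below the healthy range of 1175 to 1559 CPM. Thbs1 had 0 UMIs, which allows a level of up to 29.4 CPM by the rule of 3 UMIs (the two-sided interval ends at 36.2 CPM).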

How the data were processed

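The deposited matrices hold raw UMI counts per gene, hashtag and barcode, made by the authors with Cell Ranger on mm10, per the submitters' processing notes. The deposited annotation gives each cell's library, hashtag call and class, its UMI and gene counts, the fraction of UMIs from mitochondrial genes and a stress score and a hashtag margin score by the authors, whose formulas are not given in the sources used here. Raw counts were summed per class and animal. Animals with at least 10 Pi16+ cells entered edgeR 4.0.16 (limma 3.58.1, R 4.3.3) with TMM factors, filterByExpr and quasi-likelihood tests, with a threshold of 0.05 on Benjamini-Hochberg adjusted p. DESeq2 1.42.0, other filters, library terms and fits without 1 animal were alternatives. The steps were tested on simulated data.

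Named genes were the 10 with the largest rise and fall among called genes whose groups did not overlap and whose mean was at least 50 CPM in the higher group, leaving out sex-linked, mitochondrial, ribosomal and unnamed genes, and any listed gene. Results for some genes are not reported here. The members and lists were chosen with earlier results of these data known. Animals of an arthritic group shared 1 library, so their spread is that between animals within it. The healthy animals came from different libraries, so their spread also holds differences between libraries. Intervals cover counting error only. The TNF-inhibited comparison was not run. Promoter sequences are from RefSeq.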

Additional observations from a re-analysis of the deposited data

Results flagged for a closer look

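In the FAP-sorted group of 5 animals, 95 measures were searched for a single animal far from the other 4. These were the Pi16+ share of fibroblasts and gene levels in Pi16+ cells. A total of 7 were found, all of them gene levels. Chance alone marks about 1 in 20 such groups. Cxcl14 was at 1836 CPM in animal 4, against 2747 to 3019 CPM in the others. Scg3 was at 26.4 CPM in animal 1, against 5.20 to 10.6 CPM, and S100g, a calcium-binding protein, at 15.6 CPM in animal 3, against 1.63 to 3.96 CPM. The other 4 were muscle genes at 0 in the remaining animals and with 1 UMI in the animal named, so that any single UMI would have met the criterion, namely Acta1 (0.816 CPM) and Tcap (0.816 CPM) in animal 4, Myl1 (1.73 CPM) in animal 3 and Tnnc2 (1.03 CPM) in animal 2.

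For 32 named genes the arthritic change in Pi16+ cells differed from that in Il6+ cells of the same animals (edgeR interaction term, Benjamini-Hochberg adjusted p below 0.05). The difference in log2 change was positive for Dmkn (3.55), Krtdap (2.23), C4b (2.06), Olfml2a (1.33), Cdo1 (1.30), Sbsn (1.29), Mustn1 (1.21), Cdh13 (1.03), Cadm3 (1.02), Zbtb16 (0.95), Pcolce2 (0.92), Clec3b (0.76) and Slc39a14 (0.77). It was negative for Serpina3f (-3.62), Cxcl14 (-2.85), Inhba (-2.77), Csf3 (-2.62), Smoc2 (-2.50), Thbs1 (-2.35), Fmo2 (-1.99), Ctsc (-1.89), Pdgfrl (-1.89), Hsd11b1 (-1.77), Saa3 (-1.41), Cxcl13 (-2.55), Cxcl9 (-1.83), Col4a1 (-1.30), Col4a2 (-1.39), Mgp (-1.27), Adamts1 (-1.13), Bmp5 (-1.72) and Col12a1 (-1.35). Reads of Serpina3f and Saa3 may be shared with closely related genes.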

How the results depend on the processing

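The 6 counts of called genes kept within 1.5 times under RLE size factors and under DESeq2, and both differences in share kept their call with all annotated cells as denominator. The counts also kept with only cells whose own hashtag was the highest after scaling. Among fitted animals that setting removed Pi16+ cells only from FAP-sorted animal 2, which kept 117 of 118, so it could not test the hashtag calls. Under DESeq2 the genes whose change differed between Pi16+ and Il6+ cells were split into 42 higher and 43 lower, against 22 and 57. Without a filter on low counts, 525 genes passed in untreated arthritic against healthy cells, 623 in IL-17A-inhibited against healthy, 767 in FAP-sorted against untreated arthritic, 371 within libraries and 296 for the difference from Il6+ cells. With at least 20 cells per animal, 98 passed in untreated arthritic against healthy and 95 in FAP-sorted against untreated arthritic cells. With library as a term, 22 passed in untreated arthritic and 22 in IL-17A-inhibited against healthy cells, and without that term 216 passed within libraries. With the untreated library's own healthy animal as the only control, an alternative chosen after seeing the data, 68, 96 and 717 passed in untreated arthritic, IL-17A-inhibited and FAP-sorted against healthy cells. The cause was not tested.

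Without untreated animal 1 or 2, 184 and 238 genes passed in untreated arthritic against healthy cells. Without the healthy animal of the IL-17A-inhibitor library, 175 passed there and 27 within libraries. Without that of the TNF-inhibitor library, 197 passed in IL-17A-inhibited against healthy cells and 38 for the difference from Il6+ cells, and the within-library difference in share was -41.2. Over all fits without 1 animal, the counts ran from 161 to 240 in untreated arthritic, 195 to 295 in IL-17A-inhibited and 1529 to 2015 in FAP-sorted against healthy cells. They ran from 208 to 417 in FAP-sorted against untreated arthritic cells, from 23 to 137 within libraries and from 33 to 96 for the difference from Il6+ cells. The differences in share ran from -42.8 to -41.0 and from 6.65 to 8.16 percentage points. Of 5548 values of single genes under these alternatives, 675 lost and 35 gained a call. A change of sign was counted only where the main or the alternative fit called the gene, and 0 were found. The 54 untreated arthritic Pi16+ cells limit that group's depth, and the 9 TNF-inhibited cells allowed no fit. No paired analysis was possible because hashtag numbers mark different animals in each library and so match no animals across groups. The terms for library, and for animal where Pi16+ and Il6+ cells were compared, rest on shared libraries and animals, not on those numbers.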
